A study of Mus musculus with 6 samples.

Results

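The complement genes described here were 9 components, regulators and receptors, C3, Cfp, Cfb, Cr1l, Cd55, Cd59a, C3ar1, C5ar1 and C5ar2, out of 16579 genes measured in bone marrow cells sorted and labelled as megakaryocytes (MKs). They were picked by gene symbol, leaving C1q aside, and were chosen by working from measured values of the same genotype comparison that were already known. Their differences between genotypes are therefore given as a description and not as a test. RNA-seq covered 6 libraries of MKs that had been isolated by fluorescence-activated cell sorting from marrow of mice aged 3 months. Of these, 3 libraries were from Becn1f/f mice, in which both copies of Becn1 carry loxP sites, and 3 were labelled Becn1f/f;Pf4-iCre. The latter mice carry the same floxed alleles plus an iCre recombinase driven by Pf4 (platelet factor 4) regulatory sequence, so deletion is confined by design to cells that use this sequence. All 6 libraries thus carried the floxed alleles, and no library of unfloxed Pf4-iCre mice was analysed here. The labels number the libraries 1 to 3 in each genotype and do not say whether a library was 1 mouse or a pool. The sex of the mice sequenced was not given in the sources used here.

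Complement is a cascade of plasma proteins that marks and lyses targets and recruits leukocytes. The classical, lectin and alternative routes converge on cleavage of C3, whose fragment C3b binds to surfaces and whose fragment C3a acts on the receptor C3ar1. Cleavage of C5 further down the cascade releases C5a, the ligand of C5ar1 and C5ar2, and starts assembly of the pore that lyses membranes. Host cells carry membrane proteins that stop the cascade on their own surface. Most plasma complement is made in the liver, while C3, properdin and the receptors for C3a and C5a are also expressed by myeloid cells.

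The total of estimated counts per library lay between 16467560 and 17156728, so depth differed little. Becn1, which encodes the autophagy regulator Beclin 1, was at 128, 109 and 119 CPM (normalized counts scaled to library size with TMM factors) in Becn1f/f libraries 1, 2 and 3 and at 106, 104 and 109.8 CPM in Becn1f/f;Pf4-iCre libraries 1, 2 and 3. The genotypes overlapped, and the log2 fold change was -0.15 (SE 0.12; edgeR adjusted p = 0.936), so the latter are called the libraries labelled Becn1f/f;Pf4-iCre where a direction is drawn. The 16 megakaryocyte and platelet markers summed to 287 to 395 CPM and 299 to 376 CPM in the respective genotypes, below 16 neutrophil markers at 12401 to 17510 and 9636 to 12913 CPM. As a sum, markers of the labelled cell type were thus low beside neutrophil markers in all 6 libraries. Of the 16, Itga2b was at 142 to 187 CPM and Itgb3 at 79.8 to 143 CPM over the 6 libraries. The rest of the 16 were at no more than 25.1 CPM (Vwf) in any library. The labels alone do not settle which cells the RNA came from. The 8 monocyte markers summed to 3870 to 4320 CPM and 5222 to 5418 CPM, and 14 macrophage markers summed to 829 to 872 CPM and 884 to 1069 CPM. In these bulk libraries fewer cells of a type and less RNA per cell cannot be told apart, and the part of each cell type in the complement levels was not tested.

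Levels were compared between genes as FPKM, the deposited values that are scaled for transcript length and library size. The order in Becn1f/f libraries ran from C3 and Cfp, through Cr1l, C5ar1, Cd55 and C3ar1, to C5ar2, Cfb and Cd59a. The means ± SD (n = 3) were 321 ± 60.3 FPKM for C3, 161 ± 33.7 for Cfp, 45.2 ± 4.88 for Cr1l and 27.3 ± 5.13 for C5ar1. Further down, the means were 14.4 ± 5.37 FPKM for Cd55, 5.08 ± 1.82 for C3ar1, 1.72 ± 0.684 for C5ar2, 1.09 ± 0.505 for Cfb and 0.283 ± 0.0902 for Cd59a. Every neighbouring pair kept this order in 6 of 6 libraries, except C5ar2 and Cfb, whose ranges overlapped and of which C5ar2 was higher in 4 of 6. C3 lay at percentile 97.8 of all tested genes by mean FPKM and Cfp at percentile 95.5, whereas C5ar2 and Cfb lay at percentiles 17.4 and 16.1. C3 alone made up 51.7% to 59.6% of the summed FPKM of the 9 genes in a library, and C3 and Cfp together made up 77.2% to 86.3%.

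**Figure D1:**
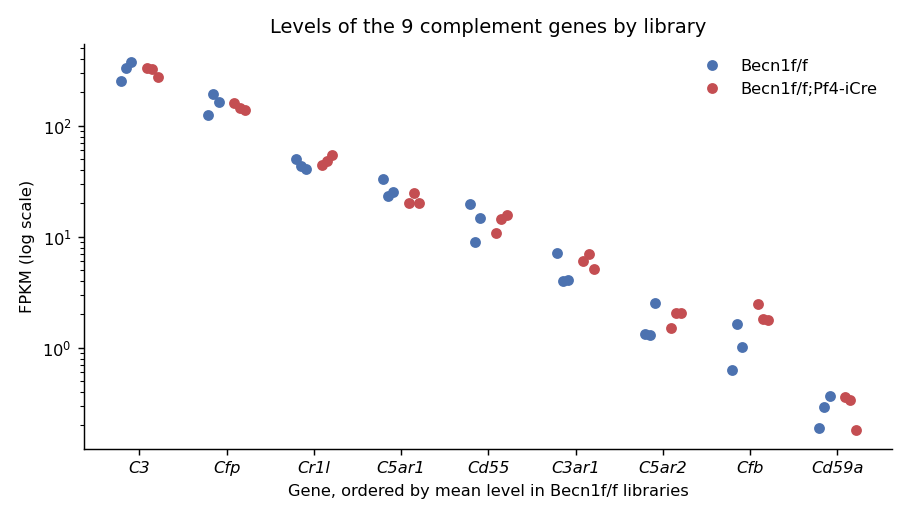
Level of each of the 9 complement genes in every library (vertical axis, FPKM on a log scale), with genes ordered along the horizontal axis by their mean in the 3 Becn1f/f libraries. Each point is 1 library, blue for Becn1f/f and red for Becn1f/f;Pf4-iCre. The genes span from 373 FPKM for C3 to 0.18 FPKM for Cd59a, and the genotypes are separate only for Cfb.

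C3 is the component on which all activation routes meet. Its RefSeq promoter is shown because C3 was the most abundant of the 9 genes. RefSeq promoters (build GRCm38.p6, 250 bases before to 50 after a gene's start) were matched for 8 of the 9 genes. The C3 promoter lies at chr17:57228087-57228386 on the minus strand. In it, capitals mark a TATAAA match and a C/EBP motif (TTGCNNAA), which were searched on both strands and picked after the sequences were seen. TATAAA is the sequence of a TATA box, but this match lies within the 50 bases after the annotated start. It is therefore not read as a TATA box here.

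C3 promoter: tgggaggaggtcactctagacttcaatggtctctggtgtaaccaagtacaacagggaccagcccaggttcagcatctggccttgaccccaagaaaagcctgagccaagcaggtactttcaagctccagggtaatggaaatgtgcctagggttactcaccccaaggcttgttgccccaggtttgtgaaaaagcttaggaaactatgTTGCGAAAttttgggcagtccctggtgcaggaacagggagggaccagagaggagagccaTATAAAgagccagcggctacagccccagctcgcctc

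TATAAA was found in 13.6% of the 32851 mouse promoters of this length and TTGCNNAA in 10.8%, so neither match is rare, and a match is no evidence of binding. C3 was at 1222, 1516 and 1720 CPM in Becn1f/f libraries 1, 2 and 3 and at 1639, 1475 and 1333 CPM in libraries 1, 2 and 3 labelled Becn1f/f;Pf4-iCre. The genotypes overlapped fully, with the highest and the lowest value both in Becn1f/f. The means were 1486 ± 250.5 and 1482 ± 153 CPM (SD, n = 3), with a log2 fold change of -0.00 (SE 0.16). C3 thus took 0.122% to 0.172% of all normalized counts in a library.

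Cfp encodes properdin, which stabilizes the C3 convertase of the alternative pathway. It was at 170.05, 253 and 209.6 CPM in Becn1f/f and at 222, 189 and 183 CPM in the libraries labelled Becn1f/f;Pf4-iCre. Becn1f/f again held both extremes. The log2 fold change was -0.09 (SE 0.16), and its sign turned without Becn1f/f library 2 (0.06). Within each library C3 was 1.73 to 2.28 times as high as Cfp on the FPKM scale.

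Cfb encodes factor B, which supplies the protease of the alternative C3 convertase. It was at 1.57, 3.85 and 2.37 CPM in Becn1f/f and at 6.23, 4.34 and 4.22 CPM in the libraries labelled Becn1f/f;Pf4-iCre. The genotypes did not overlap, although the highest Becn1f/f library and the lowest of the others were close. The means were 2.60 ± 1.16 and 4.93 ± 1.13 CPM (SD, n = 3), with a log2 fold change of 0.92 (SE 0.32), a fitted fold of 1.89. These values rested on 25, 67 and 42 estimated counts in Becn1f/f and on 104, 72 and 71 in the libraries labelled Becn1f/f;Pf4-iCre, so Cfb was among the less deeply covered of the 9 genes. Of the 50-base stretches of annotated Cfb transcripts, 73.0% also occur in Gm20547, an overlapping gene model on the same strand that is not analysed here, so reads of these genes cannot be told apart over most of the transcript.

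Factor D (Cfd), the protease that activates factor B, was detected at no more than 1 count in any library (at most 0.14 FPKM). C3 exceeded Cfb by 132-fold to 405-fold in FPKM. Alternative pathway transcripts were thus present as much C3 and Cfp, little Cfb and almost no Cfd.

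**Figure D2:**
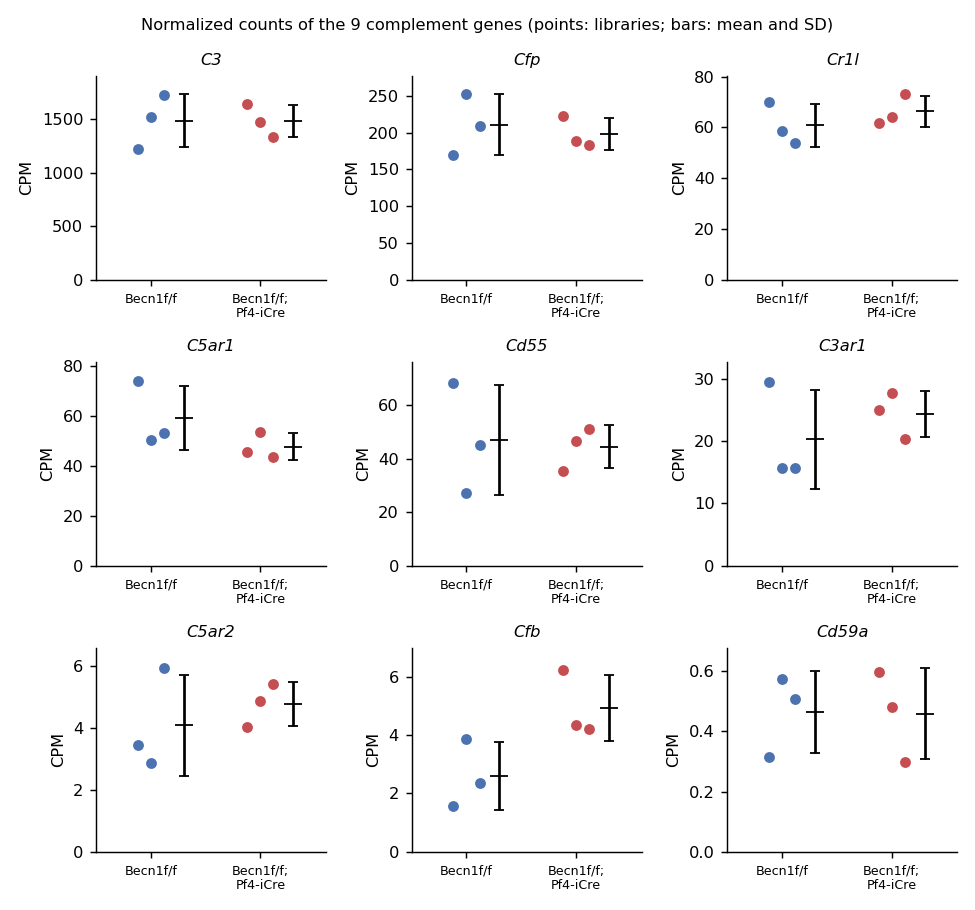
Normalized counts of each of the 9 genes (CPM, TMM-scaled, axes from 0), with 1 point per library and the mean and SD (n = 3) beside each group, Becn1f/f on the left and Becn1f/f;Pf4-iCre on the right. The panels overlap between genotypes for all genes but Cfb, which was at 1.57 to 3.85 CPM and at 4.22 to 6.23 CPM. The spread was wider in Becn1f/f for all genes but Cd59a.

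Cr1l (also called Crry) is a membrane regulator of rodents that limits C3 and C5 convertases on the cell surface. It was at 70.0, 58.7 and 53.7 CPM in Becn1f/f and at 61.7, 63.9 and 73.3 CPM in the libraries labelled Becn1f/f;Pf4-iCre. The ranges overlapped, the log2 fold change was 0.13 (SE 0.14), and Cr1l varied least of the 9 genes, with a CV of 13.7% in Becn1f/f and 9.30% in the other genotype.

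Cd55, or decay-accelerating factor, dismantles convertases. It was at 68.3, 27.3 and 45.1 CPM in Becn1f/f and at 35.4, 46.6 and 51.0 CPM in the libraries labelled Becn1f/f;Pf4-iCre. The 3 Becn1f/f libraries alone differed by 2.50-fold between highest and lowest, so this range enclosed all the others. The log2 fold change was -0.08 (SE 0.27) and ran from -0.35 without Becn1f/f library 2 to 0.30 without Becn1f/f library 1. Its copy Cd55b, which holds 384 of its 4801 stretches of 50 bases, is not analysed here.

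Cd59a blocks the last step, insertion of the lytic pore. It had 5, 10 and 9 counts in Becn1f/f and 10, 8 and 5 in the libraries labelled Becn1f/f;Pf4-iCre. At these counts Cd59a did not pass the expression filter and no fold change was fitted, so a moderate difference was not detectable at this depth. Its means were 0.466 ± 0.136 and 0.460 ± 0.152 CPM (SD, n = 3). The 3 membrane regulators thus differed among themselves far more than between genotypes, with Cr1l at 41.1 to 54.8 FPKM, Cd55 at 8.94 to 19.7 FPKM and Cd59a at 0.18 to 0.37 FPKM.

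C5ar1 and C5ar2 both bind C5a and lie side by side on mouse chromosome 7. C5ar1 signals through G proteins and drives chemotaxis of myeloid cells, whereas C5ar2 does not couple to G proteins in the usual way. Their promoters are shown because the neighbouring genes, read from the same strand, had unlike levels. The C5ar1 promoter is chr7:16259289-16259588 and the upstream of the C5ar2 promoters listed is chr7:16244105-16244404, both on the minus strand. Capitals mark ETS motifs (AGGAAG on either strand) and C/EBP motifs (TTGCNNAA on either strand), again picked after the sequences were seen.

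C5ar1 promoter: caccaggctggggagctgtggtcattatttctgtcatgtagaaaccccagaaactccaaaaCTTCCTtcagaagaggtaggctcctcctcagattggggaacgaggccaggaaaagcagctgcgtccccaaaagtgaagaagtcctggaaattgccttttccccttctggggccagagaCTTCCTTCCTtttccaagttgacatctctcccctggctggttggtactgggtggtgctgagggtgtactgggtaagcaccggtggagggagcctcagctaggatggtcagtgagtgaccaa

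C5ar2 promoter: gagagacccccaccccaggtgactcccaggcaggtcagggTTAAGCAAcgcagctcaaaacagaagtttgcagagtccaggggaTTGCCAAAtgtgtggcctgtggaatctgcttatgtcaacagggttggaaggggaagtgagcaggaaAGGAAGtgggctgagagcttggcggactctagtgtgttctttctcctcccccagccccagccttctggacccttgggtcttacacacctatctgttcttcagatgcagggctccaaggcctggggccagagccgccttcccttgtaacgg

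The C5ar1 promoter holds 3 ETS matches, of which a pair overlaps, and no C/EBP match, and the C5ar2 promoter holds 1 ETS and 2 C/EBP matches. AGGAAG occurs in 35.4% of the 32851 promoters, and these matches are a description only. C5ar1 was at 73.9, 50.3 and 53.1 CPM in Becn1f/f and at 45.6, 53.6 and 43.5 CPM in the libraries labelled Becn1f/f;Pf4-iCre. Becn1f/f library 1 stood above the other 5, which overlapped. The log2 fold change was -0.31 (SE 0.17), the lowest of the 8 genes fitted, and -0.11 without Becn1f/f library 1.

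C5ar2 was at 3.45, 2.88 and 5.93 CPM in Becn1f/f and at 4.02, 4.89 and 5.40 CPM in the libraries labelled Becn1f/f;Pf4-iCre. The latter lay inside the range of Becn1f/f. Its log2 fold change was 0.22 (SE 0.28), and 0.59 without Becn1f/f library 3, where C5ar2 was highest. On the FPKM scale C5ar1 exceeded C5ar2 by 9.79-fold to 24.7-fold in the 6 libraries.

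C3ar1, the receptor for C3a, was at 29.5, 15.8 and 15.6 CPM in Becn1f/f and at 25.0, 27.8 and 20.4 CPM in the libraries labelled Becn1f/f;Pf4-iCre. Becn1f/f library 1 was the highest of all 6, and the other Becn1f/f libraries were the lowest. For C3ar1 the log2 fold change was 0.27 (SE 0.24), or 0.64 without Becn1f/f library 1 and 0.11 without Becn1f/f library 3. C3ar1 and C5ar1 leaned in opposite directions, so the ratio of C5ar1 to C3ar1 in FPKM was 5.57 ± 0.845 in Becn1f/f and 3.61 ± 0.287 in the libraries labelled Becn1f/f;Pf4-iCre (SD, n = 3), with ranges of 4.61 to 6.23 and 3.35 to 3.92. This ratio was 1 of 9 pairs computed, 3 of which did not overlap between genotypes, and it was picked after its values were seen. The others without overlap were the ratios of C3 and of Cfp to Cfb, whose own values did not overlap.

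Across the 8 genes fitted, 4 had a positive and 4 a negative log2 fold change, and the median was 0.06, against -0.02 over all 12256 tested genes. By the thresholds of the study's methods for differentially expressed genes (DEGs), a fold of at least 1.5 and an unadjusted P under 0.05, 1 of the 8 was called, Cfb, beside 2.30% of all tested genes called in either direction and 1.36% called higher. At an adjusted p under 0.05, 0 of the 8 were called by edgeR, beside 0.0408% of all tested genes, and 1 of the 8 had an unadjusted P under 0.05, beside 6.31% of all tested genes. The normalized counts of 1 of the 8 did not overlap between genotypes, beside 10.6% of all tested genes. Since the 9 genes were chosen with this contrast known, nothing is read from these shares.

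The count rested on single libraries. Without library 1 labelled Becn1f/f;Pf4-iCre, the log2 fold change of Cfb was 0.72, and 0 of the genes passed the DEG thresholds. Without Becn1f/f library 1, C3ar1 passed together with Cfb, and without Becn1f/f library 3, C5ar2 passed together with Cfb, 2 genes in each case. Over all tested genes, 2.77% were called without library 1 labelled Becn1f/f;Pf4-iCre, 3.21% without Becn1f/f library 1 and 2.76% without Becn1f/f library 3. With all 6 libraries the share was 2.30%.

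**Figure D3:**
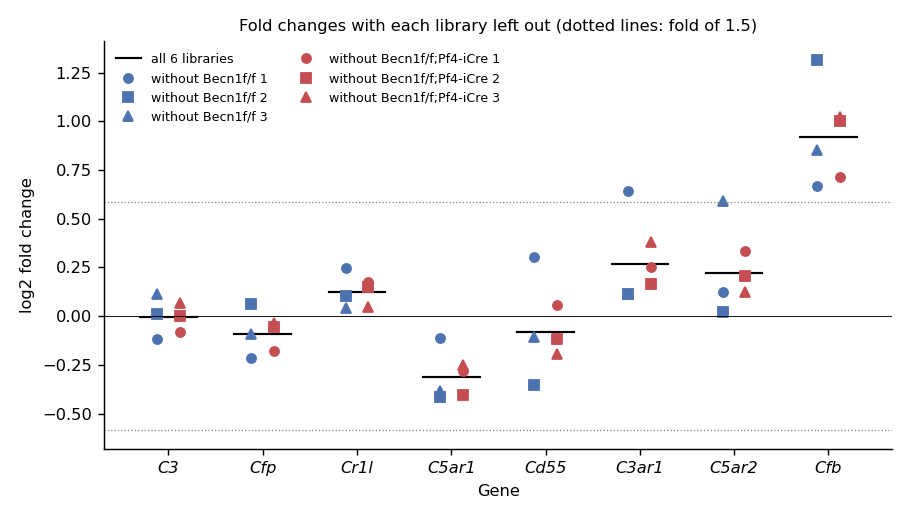
Log2 fold change (vertical axis, Becn1f/f;Pf4-iCre over Becn1f/f) of the 8 fitted genes with all 6 libraries (black line) and with each library left out (symbols). Cfb stays between 0.67 and 1.31, C3 between -0.12 and 0.11, and Cd55 runs from -0.35 to 0.30 across 0.

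The 9 genes differed in how far the libraries of a genotype spread. In Becn1f/f the CVs of Cfb (44.6%), Cd55 (43.9%), C5ar2 (39.7%) and C3ar1 (39.2%) compared with a median of 14.3% over tested genes, placing each above percentile 93 of all tested genes. The other fitted genes spread less, with Cr1l at percentile 47.1, C3 at 59.6, Cfp at 68.1 and C5ar1 at 73.9. In the libraries labelled Becn1f/f;Pf4-iCre the CVs of Cfb, Cd55, C5ar2 and C3ar1 were 22.9%, 18.1%, 14.7% and 15.2%, against a median of 11.8%, at percentiles 85.4, 74.9, 63.1 and 65.1. Among the Becn1f/f libraries, library 1 was the highest for 4 and the lowest for 4 of the 9 genes. Among those labelled Becn1f/f;Pf4-iCre, library 3 was the highest for 3 and the lowest for 6. Such counts therefore do not set Becn1f/f library 1 apart. Its cell markers did differ, since 10 eosinophil, basophil and mast cell markers summed to 10355 CPM in it. In the other Becn1f/f libraries they summed to 5469 and 5126 CPM, and in those labelled Becn1f/f;Pf4-iCre to 4025 to 6406 CPM. Whether this bears on the complement values was not tested. The correlation of Becn1f/f library 1 with the other Becn1f/f libraries was 0.980 to 0.983 on the log2 scale, compared with 0.987 to 0.992 for the other pairs of replicates.

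The rest of the pathway was read from a list of 48 other complement genes, of which 39 were in the table and 17 passed the expression filter. Among the 39, 25 were below 1 FPKM in every library. The pore-forming terminal pathway was nearly silent, since 0 of its 5 genes in the table passed the filter and the highest level was 0.74 FPKM. C5 itself, encoded by Hc, reached 0.09 FPKM at most, so the receptors for C5a were measured in samples with hardly any C5 transcript. The C1 inhibitor gene Serping1 reached 0.27 FPKM at most, and Vsig4, a macrophage receptor for C3 fragments, 0.11 FPKM.

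Integrin subunits that form receptors for C3 fragments were abundant. Itgb2, the shared beta chain, was at 299 to 357 FPKM and Itgam, the alpha chain of complement receptor 3, at 153 to 222 FPKM, close to the level of C3 and Cfp. Itgax, the alpha chain of complement receptor 4, was at 10.5 to 14.1 FPKM. Their log2 fold changes were -0.03 (SE 0.14), -0.03 (SE 0.17) and -0.05 (SE 0.14), smaller than the spread between replicates. Both C3 and these receptor subunits thus had fold changes below their SE.

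**Figure D4:**
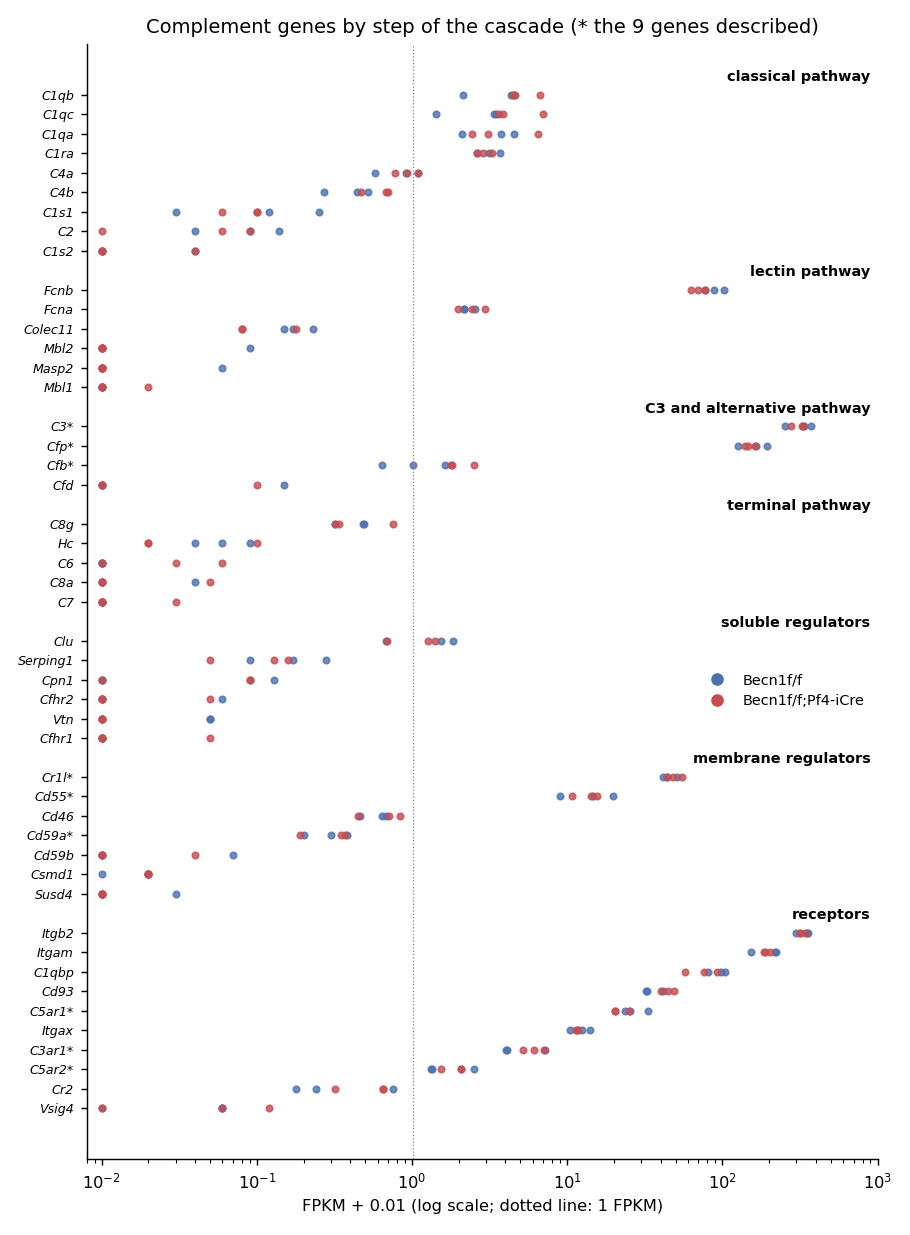
Level of the 9 genes (asterisks) and of 38 other complement genes, grouped by step of the cascade (horizontal axis, FPKM + 0.01 on a log scale). Each point is 1 library, blue for Becn1f/f and red for Becn1f/f;Pf4-iCre, and the dotted line marks 1 FPKM. C3, Cfp, Itgb2 and Itgam lie above 100 FPKM in every library, whereas the terminal pathway genes all lie under 1 FPKM.

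Of the 17 other genes tested, 10 were higher and 7 lower, with a median log2 fold change of 0.13. By the DEG thresholds 1 of them was called, C1qc, which was higher, beside 1.36% of all tested genes called higher, and 0 had an adjusted p under 0.05 in edgeR, while 4 of the 17 had an unadjusted P under 0.05, beside 6.31% of all tested genes. C1qc, a chain of the classical pathway recognition molecule, was at 1.07, 2.59 and 2.43 CPM in Becn1f/f and at 2.82, 2.77 and 5.05 CPM in the libraries labelled Becn1f/f;Pf4-iCre, with a log2 fold change of 0.80 (SE 0.36; edgeR adjusted p = 0.781). It no longer passed without Becn1f/f library 1 or without library 3 labelled Becn1f/f;Pf4-iCre, and the count was then 0. The partner chains C1qa and C1qb did not pass, with log2 fold changes of 0.21 (SE 0.38) and 0.52 (SE 0.30).

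Cd93 and Fcnb were also among the genes with an unadjusted P under 0.05, Fcnb being named after its values were seen. Cd93, a surface protein once described as a C1q receptor, had a log2 fold change of 0.35 (SE 0.14; edgeR adjusted p = 0.719), and Fcnb, a ficolin of neutrophil granules that is also in the neutrophil marker list, had -0.36 (SE 0.15; edgeR adjusted p = 0.735).

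**Figure D5:**
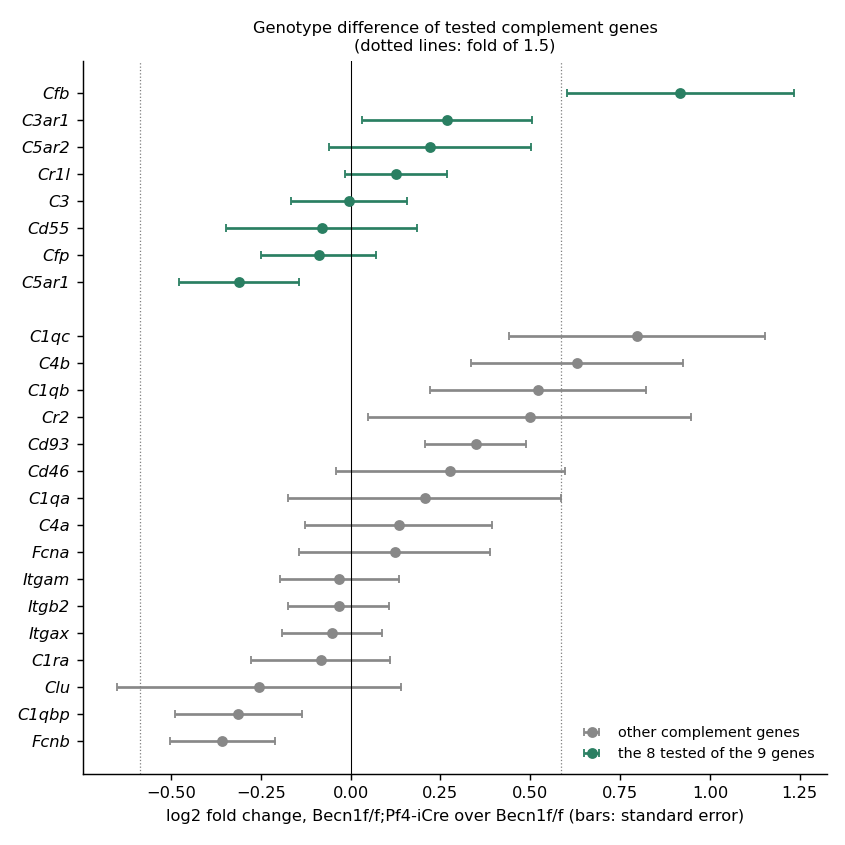
Log2 fold change (horizontal axis, Becn1f/f;Pf4-iCre over Becn1f/f, bars are SE from the edgeR fit) of the 8 fitted genes (green) and of 16 other tested complement genes (grey). The dotted lines mark a fold of 1.5. Cfb (0.92), C1qc (0.80) and 1 further gene have a point estimate past the upper line, and no gene lies past the lower one.

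Markers of other cells differed between the genotypes beside these values. Of 13 macrophage markers tested, 11 were higher in the libraries labelled Becn1f/f;Pf4-iCre and 4 passed the DEG thresholds, Mrc1, Cd163, Siglec1 and C1qc, the last of which is also in the complement list. Mrc1 had a log2 fold change of 1.26 (SE 0.19; edgeR adjusted p = 0.0572), and Timd4 had 0 counts in library 1 of each genotype. Of 8 monocyte markers, 8 were higher and 2 passed, Cx3cr1 at 0.61 (SE 0.21) and Klf4 at 0.67 (SE 0.15). Of 16 neutrophil markers, 15 were lower, with Mmp9 past the thresholds, and of 13 erythroid markers, 13 were lower and 6 passed. Over all 12256 tested genes, 5579 were higher and 6677 lower, with 167 called higher and 115 called lower by the DEG thresholds. Pf4, the gene whose regulatory sequence drives iCre, was at 3.76, 6.73 and 4.12 CPM in Becn1f/f and at 3.06, 2.11 and 2.08 CPM in the libraries labelled Becn1f/f;Pf4-iCre. Whether these markers account for any part of the values of Cfb, C3ar1 or C5ar1 was not tested.

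For Cfb, the gene past the DEG thresholds, the tested genes with the most similar pattern over the 6 libraries were Tlr11, Ier3 and Susd3, with Pearson correlations of log2 CPM of 0.99, 0.99 and 0.99. These 3 were picked as the highest among all tested genes over only 6 libraries, and 136 tested genes exceeded 0.9. Ier3, an early response gene, was at 132, 191 and 154 CPM in Becn1f/f and at 218, 187 and 195 CPM in the libraries labelled Becn1f/f;Pf4-iCre, so its genotypes overlapped where those of Cfb did not. These correlations share libraries, depth and genotype, and they are given as a description only.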

How the data were processed

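RNA-seq of sorted MKs was analysed in 3 Becn1f/f and 3 Becn1f/f;Pf4-iCre libraries, grouped by sample title. Per the study's methods, the authors extracted RNA from MKs of 3-month-old mice at BGI, sequenced it on DNBSEQ, removed low-quality reads and mapped the rest with HISAT. The submitters' processing notes also list Bowtie2 and the builds GRCm39 and mm39. The counting tool and strandedness were not given in the sources used here. The authors deposited an estimated count, which is not whole for 10.34% to 11.33% of genes per library, and an FPKM value for each of 16579 genes. A further 16 columns of per-sample values, 4 of them of 1 library that matches no sample here, and 8 columns of group means were not used.

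Estimated counts were rounded, filtered with filterByExpr (minimum count 10), scaled by TMM and tested over 12256 genes by the quasi-likelihood test of edgeR 4.0.16 (R 4.3.3), with genotype as the only term and Benjamini-Hochberg adjustment. SEs are the log2 fold change divided by the root of F. The p-values measure the spread between these libraries only, and an exact permutation test of 3 against 3 cannot give a p below 0.1. No replicate pair agreed within sampling noise (chi-square divided by its degrees of freedom, 14.6 to 47.6), and each library was 1 sample. A count of 0 allows up to 3 counts, or 0.169 to 0.188 CPM, for counting error only. On simulated counts, 191 of 198 changed genes among 12144 tested were called by the DEG thresholds, as were 137 unchanged ones. These counts are not split by size of fold, and the share called at folds near 1.5 was not tested separately.

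The members and lists were chosen with earlier results of these data known. Genes were named by rule: the 9 members, Becn1, other complement genes past the DEG thresholds or acting with a member, markers past the thresholds or at 0 counts, and the 3 genes most correlated with a called member. Of the genes under this rule, 1 is not reported here, although counts over the lists include it. The alternatives were DESeq2 1.42.0, other size factors, other filters, limma 3.58.1 on counts and on log2(FPKM + 1 or 0.1), the replicate block, trends with GC content and length taken out (GENCODE M21, by symbol), an adjusted threshold and leaving out each library. Sequences are from RefSeq.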

Additional observations from a re-analysis of the deposited data

How the results depend on the processing

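Cfb was the 1 member past the DEG thresholds in edgeR, and also under DESeq2, DESeq2's size factors, upper-quartile factors, both filters, limma-voom, log2(FPKM + 0.1) and the GC and length correction (1 gene each). On log2(FPKM + 1), with or without a mean FPKM of at least 1, 0 members passed, the log2 fold change of Cfb being 0.56; a pseudocount of 1 lies near the level of Cfb and shrinks its fold. At an adjusted p under 0.05, 0 members passed. Leaving out 1 library gave 0 to 2 members, and the cause was not tested. The share called over all tested genes ran from 1.82% to 3.30% in those fits. Among the other complement genes 1 passed, 2 passed with no filter, 2 with at least 10 counts in every library, 2 after the GC and length correction and 0 at an adjusted p under 0.05, and leaving out 1 library gave 0 to 3 (3 without Becn1f/f library 2 or 3, 2 without library 1 or 2 labelled Becn1f/f;Pf4-iCre). The log2 fold change of C3, Cfp and Cd55 changed sign in some of these fits, within -0.35 to 0.30, and those of the other 5 fitted members kept theirs in 17 of 17 alternatives. Becn1 was lower in 17 of 17, with log2 fold changes of -0.20 to -0.08.

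The replicate block gave 1 member (Cfb, 0.95) and 1 other complement gene, and changed none of these calls. To look for pairing, the deviations of log2 CPM from each gene's mean within its genotype were correlated between genotypes. For same-numbered libraries these correlations were 0.07, -0.28 and 0.20, within the range of -0.30 to 0.24 for unlike-numbered ones. With 3 libraries per genotype these values cannot show whether the numbers pair the samples, and the labels do not say. Over all tested genes DEGs numbered 282, against 129 and 137 on log2(FPKM + 1), of which 70.5% and 70.1% were higher compared with 59.2%. By adjusted p, edgeR called 5 genes, DESeq2 77 and the replicate block 19. Ordering by the Becn1f/f;Pf4-iCre libraries or by CPM per length kept the rank of 7 of 9 members. Low counts limit Cd59a (5 to 10 counts per library) and Cfb (25 to 104), and each comparison rests on 3 libraries per genotype.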
